A study of Drosophila melanogaster with 8 samples.

Results

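The proteasome subunit genes were read from the deposited gene tables as the rows with a single gene symbol that begins with Prosalpha, Prosbeta, Rpn or Rpt. The choice went by name and used no measured value. It gave 45 of 15904 rows, carrying 44 symbols. Of these rows, 30 are constitutive subunits with values, 13 in the core particle and 17 in the regulatory particle. Another 13 are additional copies, named here testis-type copies, whose symbols end in T or R with or without a number. The last 2 rows both carry the symbol Prosalpha1, an alpha ring subunit with a near-identical neighbouring copy, and both were listed at 0 in all groups, so the alpha ring is described from 6 subunits. All 43 rows with values were tested by the authors in every comparison.

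The proteasome is the protease that degrades proteins marked with ubiquitin. Its core particle is a barrel whose outer alpha rings gate the entrance and whose inner beta rings carry the cutting sites. The regulatory particle caps the barrel, with a base of ATPases that unfold the substrate and a lid that removes the ubiquitin. Cells make the subunits in coordinated amounts, and the fruit fly has further subunit copies that are expressed mainly in the testis during sperm formation.

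Total RNA was measured in whole wandering larvae of the fruit fly, at the end of the last larval instar, with 5 larvae pooled in each library and 2 libraries per group. The groups are larvae labelled Hsp90GFPhsromega66 (genotype w1118; Sp/CyO';hsp90GFPhsromega66), Hsp90GFP (w1118; Sp/CyO';hsp90GFP), hsromega66 (w1118; Sp/CyO';hsromega66) and WT (Oregon R+). hsromega is a stress-inducible gene for a long non-coding RNA, and Hsp90 is a chaperone. The first 3 groups share the w1118; Sp/CyO' background that WT lacks, so each comparison with WT also compares backgrounds. The labels do not say what drives the GFP-tagged Hsp90. The design compares each line with WT and the lines with each other.

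The values are the authors' FPKM, fragments counted per length of transcript and per sequenced fragments of the library, with 1 value per group that pools its 2 libraries. Levels of different genes can therefore be set side by side, but no library's own value was used here and no SD can be given. The depth behind a value is unknown. A row is called here where the authors' Cuffdiff q-value is under 0.05. The 95% intervals of ratios come from the standard error that the authors' test statistic implies, and their p-values do not always match those intervals. Nothing in the labels says whether the libraries of a group come from separate cultures or crosses, so the p-values speak only for these samples.

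The targeted gene checks the labels. The hsromega gene was at 77.9 FPKM in larvae labelled Hsp90GFPhsromega66, 273 FPKM in Hsp90GFP larvae, 0.767 FPKM in hsromega66 larvae and 236 FPKM in WT larvae. It was lowest in the hsromega66 larvae. The libraries labelled Hsp90GFPhsromega66 held 102 times as much of it as the hsromega66 libraries (95% interval 8.64 to 1196), which goes against their label, and every direction given for these libraries below carries that doubt. Hsp83, the gene for fly Hsp90, was at 968 FPKM in the libraries labelled Hsp90GFPhsromega66, 1616 FPKM in Hsp90GFP, 427 FPKM in hsromega66 and 371 FPKM in WT. The tumour suppressor gene l(2)gl, picked out after its values were seen, was at 0.0516 FPKM in the libraries labelled Hsp90GFPhsromega66, 65.9 FPKM in Hsp90GFP, 109 FPKM in hsromega66 and 59.6 FPKM in WT.

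The constitutive subunits were abundant RNAs in all 4 groups, and their levels lay close together. They ranged between 34.7 and 121 FPKM in the libraries labelled Hsp90GFPhsromega66, with a median of 58.6. In Hsp90GFP larvae they lay between 81.6 and 257 FPKM, with a median of 140. The range was 82.5 to 255 FPKM in hsromega66 larvae, with a median of 151, and 88.6 to 236 FPKM in WT larvae, with a median of 139. The highest subunit stood 3.49 times above the lowest in the libraries labelled Hsp90GFPhsromega66, 3.15 times in Hsp90GFP, 3.09 times in hsromega66 and 2.67 times in WT. The order of the subunits by level was much the same between any pair of groups, with Spearman's rho between 0.903 and 0.936 over the 30 genes, which share the libraries and gene models within a group.

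In the core, Prosbeta5 and Prosalpha2 had the highest levels by the mean over the groups, although in WT Prosalpha2 lay below Prosbeta7 and Prosalpha6. Prosbeta5, the subunit with the chymotrypsin-like cutting site, was at 121 FPKM in the libraries labelled Hsp90GFPhsromega66, 242 FPKM in Hsp90GFP, 255 FPKM in hsromega66 and 236 FPKM in WT. Prosalpha2, part of the gated outer ring, was at 116 FPKM in the libraries labelled Hsp90GFPhsromega66, 257 FPKM in Hsp90GFP, 236 FPKM in hsromega66 and 206 FPKM in WT. Both were lowest in the libraries labelled Hsp90GFPhsromega66, and the other groups lay near one another. Prosbeta1, with the caspase-like site, was at 99.7 FPKM in the libraries labelled Hsp90GFPhsromega66, 172 FPKM in Hsp90GFP, 196 FPKM in hsromega66 and 186 FPKM in WT. Prosbeta2, with the trypsin-like site, had the lowest mean level of its ring, at 62.5 FPKM in the libraries labelled Hsp90GFPhsromega66, 114.95 FPKM in Hsp90GFP, 140 FPKM in hsromega66 and 139 FPKM in WT. Prosalpha4 had the lowest level of the alpha ring in each group, at 66.5 FPKM in the libraries labelled Hsp90GFPhsromega66, 152 FPKM in Hsp90GFP, 154 FPKM in hsromega66 and 154 FPKM in WT. So the listed levels for the 3 proteolytic sites were not equal in any group, with 1 value per group and no error. The rows of Prosbeta1 and Prosbeta2 span 6.56 and 10.3 times the gene and take in other genes, so these levels are uncertain. The structural subunit Prosbeta7 and the outer-ring subunit Prosalpha6 were the next highest by mean level in their rings. Prosbeta7 was at 101 FPKM in the libraries labelled Hsp90GFPhsromega66, 219 FPKM in Hsp90GFP, 214 FPKM in hsromega66 and 212 FPKM in WT. Prosalpha6 was at 99.7 FPKM in the libraries labelled Hsp90GFPhsromega66, 225 FPKM in Hsp90GFP, 193 FPKM in hsromega66 and 210.4 FPKM in WT.

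In the regulatory particle the levels were lower, with a median of 53.4 FPKM in the libraries labelled Hsp90GFPhsromega66, 125 FPKM in Hsp90GFP, 135 FPKM in hsromega66 and 128 FPKM in WT. The core medians were 91.8 FPKM in the libraries labelled Hsp90GFPhsromega66, 192 FPKM in Hsp90GFP, 196 FPKM in hsromega66 and 186 FPKM in WT. The lowest of all constitutive subunits in every group was Rpn2, a large scaffold of the base, at 34.7 FPKM in the libraries labelled Hsp90GFPhsromega66, 81.6 FPKM in Hsp90GFP, 82.5 FPKM in hsromega66 and 88.6 FPKM in WT. The ubiquitin receptor Rpn10 had the highest level of the base, at 58.6 FPKM in the libraries labelled Hsp90GFPhsromega66, 149 FPKM in Hsp90GFP, 146 FPKM in hsromega66 and 138 FPKM in WT. Among the ATPases, Rpt5 was at 51.7 FPKM in the libraries labelled Hsp90GFPhsromega66, 133 FPKM in Hsp90GFP, 132 FPKM in hsromega66 and 116 FPKM in WT. The ATPase Rpt6 was at 47.9 FPKM in the libraries labelled Hsp90GFPhsromega66, 94.2 FPKM in Hsp90GFP, 113 FPKM in hsromega66 and 107 FPKM in WT. In the lid, Rpn8 had the lowest mean level and Rpn9 the highest. Rpn8, the partner of the deubiquitinase, was at 48.3 FPKM in the libraries labelled Hsp90GFPhsromega66, 110 FPKM in Hsp90GFP, 109 FPKM in hsromega66 and 108 FPKM in WT. Rpn9, a lid scaffold subunit, was at 62.6 FPKM in the libraries labelled Hsp90GFPhsromega66, 133 FPKM in Hsp90GFP, 197 FPKM in hsromega66 and 169 FPKM in WT. Its row spans 14.1 times the length of the gene and takes in other genes, so its level is uncertain.

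**Figure D1:**
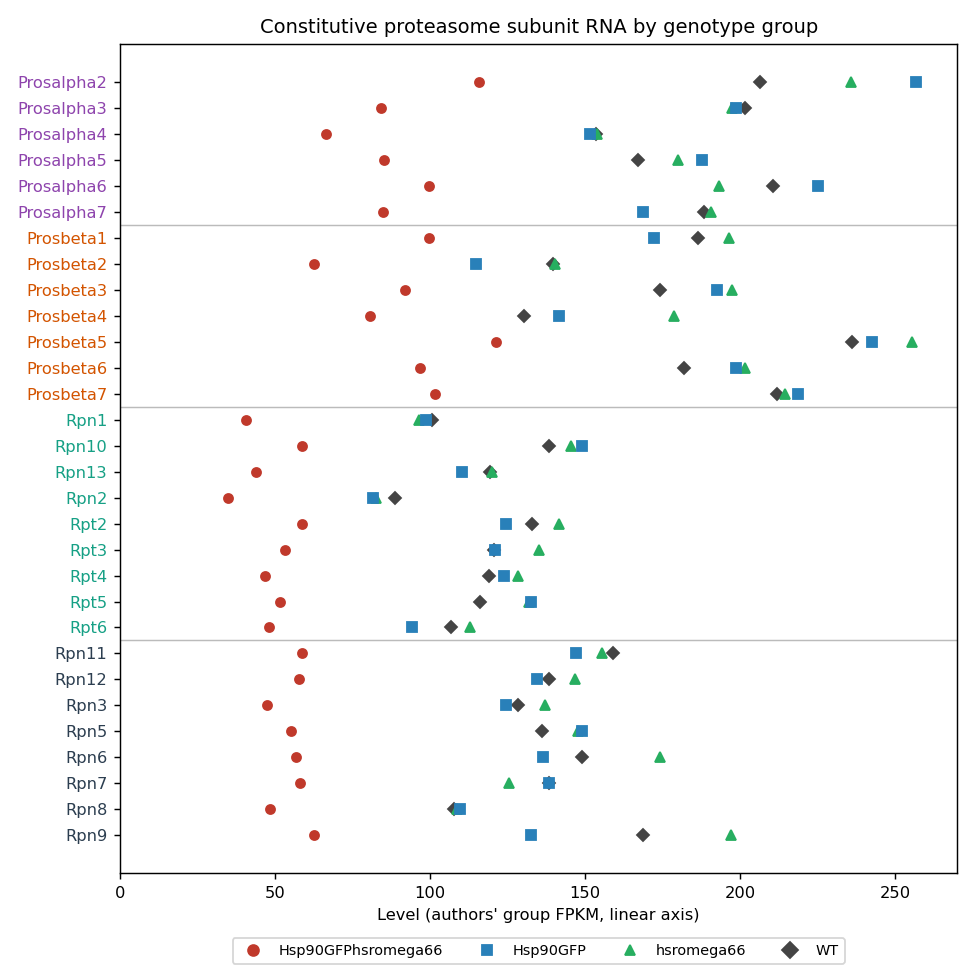
Levels of the 30 constitutive proteasome subunits in FPKM on a linear axis, with 1 point per group and no error because the deposited values pool the libraries of a group. From top to bottom the blocks are the alpha ring, beta ring, base and lid. Every subunit is lowest in the libraries labelled Hsp90GFPhsromega66 (34.7 to 121 FPKM), while the other 3 groups lie together.

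All 30 constitutive subunits stood lower in the libraries labelled Hsp90GFPhsromega66 than in WT, but none passed the authors' test. The median ratio was 0.442 (log2 ratio -1.18), and the single subunits ran between 0.369 for Rpn13 and 0.620 for Prosbeta4. In this comparison 8.66% of 12656 tested rows were called by Cuffdiff, and 4.05% of the tested rows were called lower, so 0 of 30 is not above that background. An unadjusted Cuffdiff p under 0.05 was reached by 16 of the 30, against 8.86% of all tested rows in the same direction. The test on implied standard errors, adjusted over all rows, called 0 of the 30. These standard errors were 0.761 or more and no log2 ratio was below -1.44, so no subunit could reach even an unadjusted p of 0.05 in it. That test therefore adds nothing to the lack of Cuffdiff calls. The median log2 ratio of all tested rows was -0.06, and 53.9% of them were lower. A ratio at or below that of Prosbeta4 was found in 27.9% of all rows with a ratio, and in 17.0% of the rows that average at least 50 FPKM over the groups. Rows of that level had a median log2 ratio of 0.45, on the other side of 0 from the subunits.

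By ratio, Rpn13, Rpn11 and Rpn3 of the regulatory particle stood lowest. Rpn3, a lid scaffold subunit (2L, 19051790 to 19053681, plus strand, dm6), was at 47.5 FPKM in the libraries labelled Hsp90GFPhsromega66 and 128 FPKM in WT. Its ratio was 0.370 (95% interval 0.126 to 1.09), with q = 0.0842 in the authors' deposited table from Cuffdiff, the lowest of any constitutive subunit. Rpn11, the deubiquitinase of the lid (2L, 5058404 to 5059790, minus strand, dm6), was at 58.6 FPKM in the libraries labelled Hsp90GFPhsromega66 and 159 FPKM in WT. Its ratio was 0.369 (0.126 to 1.08), with a Cuffdiff q of 0.0879 in the authors' deposited table. Rpn13, a ubiquitin receptor, was at 44.0 FPKM in the libraries labelled Hsp90GFPhsromega66 and 119 FPKM in WT, a ratio of 0.369 (0.127 to 1.07) with a Cuffdiff q of 0.120 in the authors' deposited table. The highest ratios were those of Prosbeta4 and Prosalpha2 in the core. Prosbeta4, a structural subunit of the inner ring, was at 80.7 FPKM in the libraries labelled Hsp90GFPhsromega66 and 130 FPKM in WT, a ratio of 0.620 (0.187 to 2.05). Prosalpha2 had a ratio of 0.561 (0.161 to 1.96). The intervals are wide for every subunit, and none of the 5 excludes a ratio of 1. Yet the unadjusted Cuffdiff p was 0.0081 for Rpn3, 0.0086 for Rpn11 and 0.01335 for Rpn13, so intervals and p-values do not match there. For Prosbeta4 and Prosalpha2 it was 0.275 and 0.191. All 16 constitutive subunits with such a p under 0.05 against WT have intervals that include 1.

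How near a subunit came to the threshold went with the row it was counted in. For 10 subunits, Prosalpha2, Prosbeta1 to Prosbeta4, Rpn7, Rpn8, Rpn9, Rpt5 and Rpt6, the row spans at least 2 times the gene because it takes in overlapping neighbours. The median implied standard error of their log2 ratios was 0.972, with 5.25 for Rpn9, and 1 of 10 had an unadjusted Cuffdiff p under 0.05. For the other 20 the median standard error was 0.794, and 15 of 20 had such a p. The median log2 ratios of the sets were -1.16 for the 10 and -1.25 for the 20.

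The same libraries stood lower than both other lines as well. These comparisons share the libraries labelled Hsp90GFPhsromega66 with the one above, so they are not independent of it. Against hsromega66, all 30 subunits were lower with a median log2 ratio of -1.23 and a range of -1.65 to -0.95. Cuffdiff called 0 of the 30, where 7.30% of all tested rows were called, and 17 had an unadjusted p under 0.05, against 8.17% of all rows lower with such a p. Rpn6, a lid scaffold subunit, was at 56.7 FPKM in the libraries labelled Hsp90GFPhsromega66 and 174 FPKM in hsromega66, a ratio of 0.326 (0.109 to 0.976) with a Cuffdiff q of 0.0574 in the authors' deposited table. Against Hsp90GFP, all 30 were again lower, with a median log2 ratio of -1.18 and a range of -1.44 to -0.79. Cuffdiff called 0 of the 30, where 6.66% of all rows were called, and 16 had an unadjusted p under 0.05, against 7.60% of rows lower with such a p. The lowest q was that of the lid subunit Rpn5 (3R, 5789493 to 5791569, plus strand, dm6), at 55.1 FPKM in the libraries labelled Hsp90GFPhsromega66 and 149 FPKM in Hsp90GFP, with a Cuffdiff q of 0.0812 in the authors' deposited table. The base ATPase Rpt4 had the lowest ratio of the base in both comparisons, with log2 ratios of -1.46 against hsromega66 and -1.41 against Hsp90GFP. The test on implied standard errors called 0 of the 30 in each of these comparisons. Those errors were 0.767 or more against hsromega66 and 0.759 or more against Hsp90GFP, so the test had little reach at such ratios.

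The Hsp90GFP and hsromega66 larvae had subunit levels near those of WT. In Hsp90GFP over WT, 15 subunits were higher and 15 lower, with a median log2 ratio of -0.01 and a range of -0.35 for Rpn9 to 0.31 for Prosalpha2. In hsromega66 over WT, 24 were higher and 6 lower, with a median of 0.08 and a range of -0.14 for the lid subunit Rpn7 to 0.46 for Prosbeta4, and the median turned to -0.07 when groups were scaled to their summed FPKM. Cuffdiff called 0 of 30 in both, where 1.09% of rows were called for Hsp90GFP and 1.24% for hsromega66. In both, 0 of 30 had an unadjusted Cuffdiff p under 0.05, against 3.06% of rows for Hsp90GFP and 3.49% for hsromega66. Prosbeta4 was at 179 FPKM in hsromega66 and 130 FPKM in WT, a ratio of 1.37 (0.421 to 4.48) with a Cuffdiff q of 0.890 in the authors' deposited table. In the direct comparison of Hsp90GFP over hsromega66, 11 were higher and 19 lower, with a median log2 ratio of -0.04 that turned to 0.18 when groups were scaled to their summed FPKM. Cuffdiff called 0 of the 30 there, where 0.997% of rows were called, and 0 of 30 had an unadjusted p under 0.05, against 3.10% of rows. Its extremes were Prosalpha6 at 0.22 and Rpn9 at -0.57. The test on implied standard errors called 0 of 30 in each of these 3 comparisons, and the interval for Prosbeta4 shows how large a difference they leave possible.

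**Figure D2:**
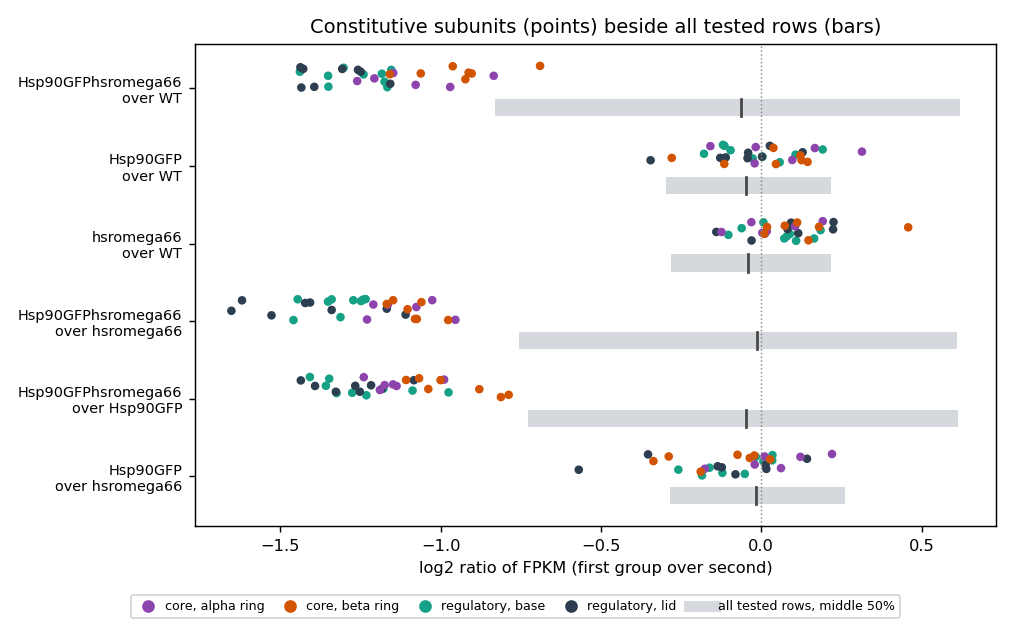
Log2 ratios of FPKM for the 30 constitutive subunits (points, coloured by ring, base or lid) in the 6 comparisons, each named as first group over second. Grey bars span the middle 50% of all tested rows and the tick marks their median. The points lie at -0.69 or below in the first comparison and around 0 wherever the libraries labelled Hsp90GFPhsromega66 are not involved.

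Within the rings, the alpha-ring log2 ratios of Hsp90GFP over WT ran up to 0.31 for Prosalpha2, and the beta-ring ratios down to -0.28 for Prosbeta2. In Hsp90GFP over hsromega66 the lowest beta-ring log2 ratio was -0.34 for Prosbeta4. Prosalpha7, an outer-ring subunit at 84.9 FPKM in the libraries labelled Hsp90GFPhsromega66, 169 FPKM in Hsp90GFP, 190.5 FPKM in hsromega66 and 188 FPKM in WT, had the lowest alpha-ring log2 ratio of Hsp90GFP over WT, -0.16. Prosbeta3, a structural inner-ring subunit at 91.8 FPKM in the libraries labelled Hsp90GFPhsromega66, 192 FPKM in Hsp90GFP, 197 FPKM in hsromega66 and 174 FPKM in WT, had the highest beta-ring log2 ratio of that comparison, 0.14.

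Whether the 2 changes add up was tested as a difference of log2 ratios, Hsp90GFPhsromega66 over Hsp90GFP minus hsromega66 over WT. The median difference over the constitutive subunits was -1.23. On implied standard errors 0 of 42 members tested passed after Benjamini-Hochberg adjustment over 11893 rows, and 56 rows passed in all. The lowest adjusted p-values of members in this z test were those of the testis-type copies Prosalpha6T, Prosbeta5R1 and Prosbeta2R2. They were 0.727, 0.815 and 0.953, far from the threshold. The lowest unadjusted p of a constitutive subunit on implied standard errors was 0.170, for Rpn5. No constitutive difference was below -1.55 and their standard errors were 1.09 or more. So no constitutive subunit could reach an unadjusted p of 0.05, and the lack of passing subunits does not say whether the changes add up. Since the hsromega level goes against the label, this difference cannot be read as that of a known genotype.

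Core and regulatory subunits did not stand lower to the same degree. The summed FPKM of the core was 1190 in the libraries labelled Hsp90GFPhsromega66 and 2387 in WT, a ratio of 0.499. The regulatory sum was 881 in the libraries labelled Hsp90GFPhsromega66 and 2167 in WT, a ratio of 0.407. The core sum was thus 1.35 times the regulatory sum in the libraries labelled Hsp90GFPhsromega66, 1.17 times in Hsp90GFP, 1.109 times in hsromega66 and 1.101 times in WT. These are ratios of 1 value per group, so they carry no error and no test. The sums hold only the rows chosen by name and leave out Prosalpha1, the merged row of Rpt1, and Sem1, a small lid component. Sem1 was at 394 FPKM in hsromega66 and 336 FPKM in WT, more than the gap between the sums in each of these groups. Which sum is higher there thus depends on the rows taken in. Over single genes against WT, the median log2 ratio was -1.11 in the alpha ring, -0.92 in the beta ring, -1.24 in the base and -1.35 in the lid. The beta ring had 0 of 7 subunits with an unadjusted Cuffdiff p under 0.05, the alpha ring 3 of 6, the base 8 of 9 and the lid 5 of 8, against the 8.86% of all rows given above. Rows that span at least 2 times the gene were 4 of 7 in the beta ring, 1 of 6 in the alpha ring, 2 of 9 in the base and 3 of 8 in the lid, and the part of these spans in the counts was not tested.

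The ranges of core and regulatory subunits overlapped in part. The regulatory subunits lay between -1.44 and -1.15 on the log2 scale and the core subunits between -1.26 and -0.69, with 3 of 13 core subunits inside the regulatory range. Those were Prosalpha3, Prosalpha4 and Prosbeta2. Prosalpha3 was at 84.2 FPKM in the libraries labelled Hsp90GFPhsromega66 and 202 FPKM in WT, a ratio of 0.418 (0.149 to 1.17). Against hsromega66 the core median was -1.08 and the regulatory median -1.34, with 5 of 13 core subunits in the regulatory range. Against Hsp90GFP the medians were -1.07 and -1.27, with 10 of 13 core subunits in the regulatory range. In the comparisons of Hsp90GFP and hsromega66 with WT the core and regulatory medians were 0.05 and -0.04, and 0.07 and 0.08.

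Transcript length differed between the sets. The longest annotated transcripts ran from 815 to 1215 bp in the core and from 995 to 3412 bp in the regulatory particle. In the libraries labelled Hsp90GFPhsromega66 over WT, log2 ratio and length had a Spearman's rho of -0.72 over the 30 subunits, -0.65 over the 13 of the core and -0.19 over the 17 of the regulatory particle. Within the core it was -0.19 against hsromega66 and -0.39 against Hsp90GFP, and -0.60 in hsromega66 over WT, where the core and regulatory medians were 0.07 and 0.08. Over 30 subunits it was -0.73 against hsromega66 and -0.63 against Hsp90GFP. In the comparison with WT, over 1285 rows averaging at least 50 FPKM, the rho was -0.11. The part of length in the difference between core and regulatory particle was not tested.

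**Figure D3:**
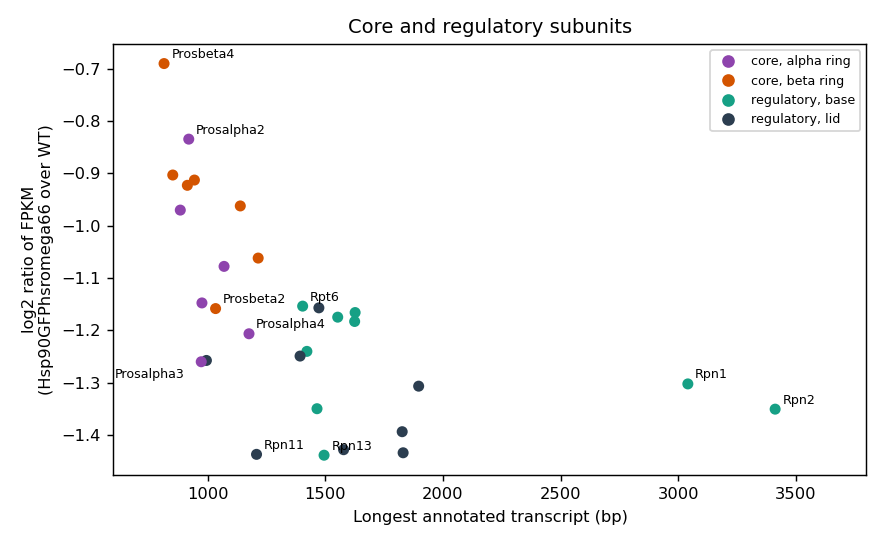
Log2 ratio of FPKM, libraries labelled Hsp90GFPhsromega66 over WT, against the longest annotated transcript in bp, with 1 point per constitutive subunit. Core subunits (purple and orange) are short and lie between -1.26 and -0.69, and regulatory subunits (green and dark blue) lie between -1.44 and -1.15.

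Markers of other tissues differed between the groups as well, by unlike amounts and with few calls. In bulk larvae, fewer cells of a type and less RNA per cell cannot be told apart. The 9 muscle marker rows summed to 12959 FPKM in the libraries labelled Hsp90GFPhsromega66, 7148 in Hsp90GFP, 3530 in hsromega66 and 6158 in WT. All 9 were higher in the libraries labelled Hsp90GFPhsromega66 than in WT, with 0 called. All 9 were lower in hsromega66 than in WT, also with 0 called. Against hsromega66, Mhc and up were called higher in the libraries labelled Hsp90GFPhsromega66, where 7.30% of all tested rows were called. The 4 fat body rows summed to 16727 FPKM in the libraries labelled Hsp90GFPhsromega66, 28665 in Hsp90GFP, 26431 in hsromega66 and 32490 in WT. Of these, Fbp1 and Lsp2 were called lower against WT, where 4.05% of all tested rows were. The other rows were not called. Lsp1beta went the other way, at 11259 FPKM in the libraries labelled Hsp90GFPhsromega66 and 8845 in WT, and Lsp1alpha was at 5287 and 6652. The 11 proliferation markers summed to 117 FPKM in the libraries labelled Hsp90GFPhsromega66, 137 in Hsp90GFP, 133 in hsromega66 and 155 in WT. Only CycB was called lower against WT, beside the same 4.05% of all tested rows. The 9 germline rows summed to 84.3 FPKM in the libraries labelled Hsp90GFPhsromega66, 74.5 in Hsp90GFP, 74.7 in hsromega66 and 72.2 in WT, and 0 of the 7 tested rows were called. Most of that sum was tud, at 77.5 FPKM in the libraries labelled Hsp90GFPhsromega66, 59.4 in Hsp90GFP, 56.2 in hsromega66 and 59.5 in WT. Of the 7 tested germline rows, 4 were higher and 3 lower in the libraries labelled Hsp90GFPhsromega66 than in WT. The lowest ratio of them, not called, was that of the germline differentiation gene bam. It was at 0.427 FPKM in the libraries labelled Hsp90GFPhsromega66, 9.18 in Hsp90GFP, 12.6 in hsromega66 and 7.44 in WT. No marker of these lists was listed at 0 in the libraries labelled Hsp90GFPhsromega66 or in WT. Their part in the subunit levels was not tested.

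The testis-type copies were scarce in all groups and scarcest in the libraries labelled Hsp90GFPhsromega66. Their summed level was 7.41 FPKM in the libraries labelled Hsp90GFPhsromega66, 42.4 FPKM in Hsp90GFP, 40.1 FPKM in hsromega66 and 51.7 FPKM in WT. All 13 reached 1 FPKM in each of the last 3 groups, and 2 of 13, Rpn13R and Rpt4R, did so in the libraries labelled Hsp90GFPhsromega66. Against WT, 12 were lower and 1 was higher there, and 2 of 13 were called lower, where 4.05% of all tested rows were. The 2 called genes were called lower against all 3 other groups, where 3.14% of rows were called lower against Hsp90GFP and 3.63% against hsromega66. The test on implied standard errors called 1 of them against WT, 0 against hsromega66 and 0 against Hsp90GFP.

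Rpt6R, a copy of the base ATPase Rpt6 (3R, 30582198 to 30583697, minus strand, dm6), was at 0.774 FPKM in the libraries labelled Hsp90GFPhsromega66, 6.98 FPKM in Hsp90GFP, 5.79 FPKM in hsromega66 and 9.96 FPKM in WT. It fell to a ratio of 0.0777 of WT (0.0194 to 0.311), with a Cuffdiff q of 0.00372 in the authors' deposited table. The Cuffdiff q was 0.00824 against Hsp90GFP and 0.0151 against hsromega66, again in the authors' deposited table. On implied standard errors, with Benjamini-Hochberg adjustment over all rows, the adjusted p of Rpt6R was 0.00917 against WT, 0.0554 against Hsp90GFP and 0.119 against hsromega66, so its calls against these lines were lost. Prosalpha3T, a single-exon copy of Prosalpha3 (3R, 31122527 to 31123415, minus strand, dm6), was listed at 0 in the libraries labelled Hsp90GFPhsromega66 and was at 1.46 FPKM in Hsp90GFP, 1.49 FPKM in hsromega66 and 1.66 FPKM in WT. Its Cuffdiff q was 0.00144 in each of the 3 comparisons of the authors' deposited table, the smallest q it holds. With a level listed at 0 it has no ratio and could not enter the test on implied standard errors. Constitutive Rpt6 and Prosalpha3 were not called in any comparison, although both stood lower in the libraries labelled Hsp90GFPhsromega66.

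Most other copies stood as low without a call. Prosalpha6T was at 0.193 FPKM in the libraries labelled Hsp90GFPhsromega66, 5.11 FPKM in Hsp90GFP, 5.02 FPKM in hsromega66 and 6.05 FPKM in WT. Prosalpha4T1 was at 0.114 FPKM in the libraries labelled Hsp90GFPhsromega66, 2.37 FPKM in Hsp90GFP, 2.06 FPKM in hsromega66 and 2.69 FPKM in WT. Prosalpha4T2 was at 0.248 FPKM in the libraries labelled Hsp90GFPhsromega66, 3.30 FPKM in Hsp90GFP, 3.25 FPKM in hsromega66 and 3.89 FPKM in WT. These 3 are copies of outer-ring subunits, and each was lowest in the libraries labelled Hsp90GFPhsromega66. Among copies of inner-ring subunits, Prosbeta2R1 was at 0.231 FPKM in the libraries labelled Hsp90GFPhsromega66, 3.72 FPKM in Hsp90GFP, 1.64 FPKM in hsromega66 and 3.62 FPKM in WT. Prosbeta2R2 was at 0.272 FPKM in the libraries labelled Hsp90GFPhsromega66, 2.83 FPKM in Hsp90GFP, 2.86 FPKM in hsromega66 and 2.85 FPKM in WT, with a Cuffdiff q of 0.0933 against WT in the authors' deposited table. Prosbeta4R1 was at 0.0619 FPKM in the libraries labelled Hsp90GFPhsromega66, 2.35 FPKM in Hsp90GFP, 3.20 FPKM in hsromega66 and 2.65 FPKM in WT. The copies of Prosbeta5 carry the symbol of the chymotrypsin-like subunit. Prosbeta5R1 was at 0.0879 FPKM in the libraries labelled Hsp90GFPhsromega66, 3.45 FPKM in Hsp90GFP, 3.34 FPKM in hsromega66 and 3.82 FPKM in WT. Prosbeta5R2 was at 0.0152 FPKM in the libraries labelled Hsp90GFPhsromega66, 1.15 FPKM in Hsp90GFP, 1.66 FPKM in hsromega66 and 4.18 FPKM in WT. It was the copy with the lowest ratio of Hsp90GFP over WT, 0.276 (0.0706 to 1.08), with a Cuffdiff q of 0.126 in the authors' deposited table. No copy was called in Hsp90GFP over WT or in hsromega66 over WT, where 1.09% and 1.24% of all tested rows were called. An unadjusted Cuffdiff p under 0.05 was reached by 1 of 13 and 0 of 13, against 3.06% and 3.49% of rows.

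The 3 remaining copies belong to the regulatory particle. Rpt4R was at 3.49 FPKM in the libraries labelled Hsp90GFPhsromega66, 3.85 FPKM in Hsp90GFP, 4.41 FPKM in hsromega66 and 3.27 FPKM in WT, with a ratio of 1.07 to WT (0.294 to 3.89). Its 4 values lay close together, and it was the only copy not lower than WT in the libraries labelled Hsp90GFPhsromega66. Rpn13R was at 1.36 FPKM in the libraries labelled Hsp90GFPhsromega66, 1.59 FPKM in Hsp90GFP, 1.32 FPKM in hsromega66 and 1.85 FPKM in WT, but its row spans 155 times the gene and overlaps rg, so its level is uncertain. Rpn12R, at 0.564 FPKM in the libraries labelled Hsp90GFPhsromega66, 4.26 FPKM in Hsp90GFP, 4.01 FPKM in hsromega66 and 5.25 FPKM in WT, has a row that spans 53.5 times the gene.

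**Figure D4:**
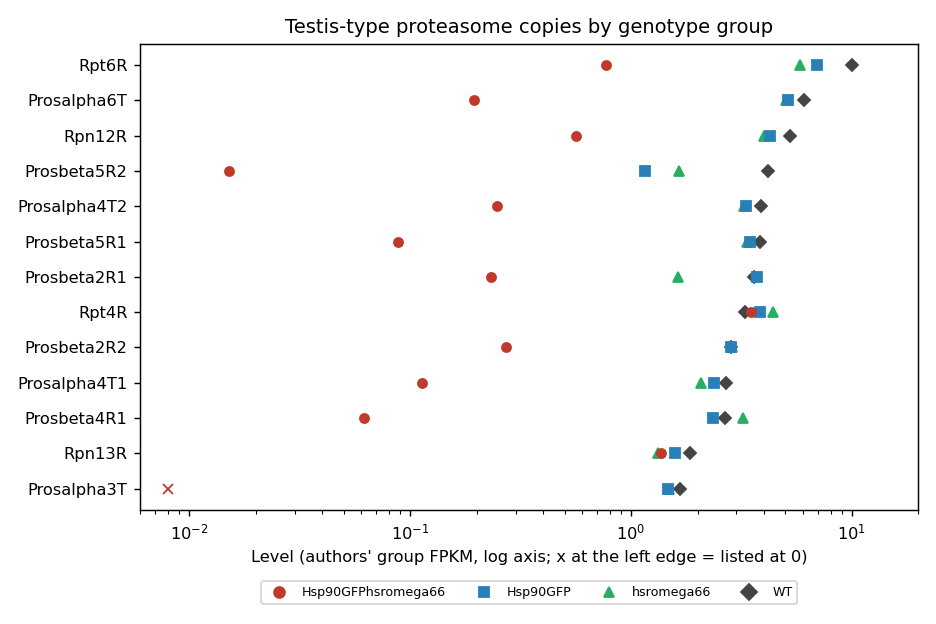
Levels of the 13 testis-type copies in FPKM on a log axis, 1 point per group, ordered by WT level, with the one level listed at 0 drawn as a cross at the left edge. In the libraries labelled Hsp90GFPhsromega66, 10 of the copies with a value lie below 1 FPKM, and Rpt4R and Rpn13R lie with the other groups.

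Testis markers were lower in the same libraries too, but to very unlike degrees. All 32 testis marker rows tested were lower in the libraries labelled Hsp90GFPhsromega66 than in WT, with a median log2 ratio of -4.36. Their ratios to WT ran from 0.0140 to 0.952, so some markers were hardly lower. Of these, 10 were called lower, among them Mst84Dc, loopin-1 and ocn, where 4.05% of all tested rows were. Their levels summed to 55.8 FPKM in the libraries labelled Hsp90GFPhsromega66, 527 FPKM in Hsp90GFP, 637 FPKM in hsromega66 and 730 FPKM in WT, and 0 of the 32 were listed at 0 in the libraries labelled Hsp90GFPhsromega66. The male dosage compensation RNAs roX1 and roX2 summed to 594 FPKM in the libraries labelled Hsp90GFPhsromega66, 315 FPKM in Hsp90GFP, 323 FPKM in hsromega66 and 203 FPKM in WT, and neither was called against WT. The part of testis content in the levels of the copies was not tested.

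In 3 further rows a subunit is merged with a neighbouring gene, so the subunit's own level cannot be given. The row of CG17985 and the base ATPase Rpt1 was at 82.0 FPKM in the libraries labelled Hsp90GFPhsromega66, 173 FPKM in Hsp90GFP, 186 FPKM in hsromega66 and 175 FPKM in WT. The row of Or23a and Prosbeta4R2 was at 0.262 FPKM in the libraries labelled Hsp90GFPhsromega66, 3.20 FPKM in Hsp90GFP, 4.51 FPKM in hsromega66 and 5.91 FPKM in WT. The row of CG16908 and Rpt3R was at 7.07 FPKM in the libraries labelled Hsp90GFPhsromega66, 9.23 FPKM in Hsp90GFP, 7.61 FPKM in hsromega66 and 7.96 FPKM in WT. None of the 3 was called against WT.

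Genes that assemble, regulate or feed the proteasome were compared in lists. In the libraries labelled Hsp90GFPhsromega66 over WT, 8.66% of all tested rows were called and 4.05% were called lower. Of 7 assembly factors and partners, 6 were lower and 1 higher in the libraries labelled Hsp90GFPhsromega66 than in WT, with a median log2 ratio of -0.71 and 0 called. Sem1, a small lid component, was at 137 FPKM in the libraries labelled Hsp90GFPhsromega66, 331 FPKM in Hsp90GFP, 394 FPKM in hsromega66 and 336 FPKM in WT, a ratio of 0.406 to WT (0.133 to 1.24). Pomp, the chaperone that helps build the core, was at 50.4 FPKM in the libraries labelled Hsp90GFPhsromega66, 124 FPKM in Hsp90GFP, 139 FPKM in hsromega66 and 145 FPKM in WT, a ratio of 0.349 to WT (0.0790 to 1.54). Both lay within the range of the subunits or close to it. The exception was REG, an activator that binds the core in place of the regulatory particle. It was at 88.2 FPKM in the libraries labelled Hsp90GFPhsromega66, 58.3 FPKM in Hsp90GFP, 58.7 FPKM in hsromega66 and 62.7 FPKM in WT, a ratio of 1.41 (0.486 to 4.07). Scaling groups to their summed FPKM moves each log2 ratio of this comparison by -0.36, which leaves REG less far above WT.

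All 10 genes for ubiquitin, shuttle factors and the TER94 segregase were lower in the libraries labelled Hsp90GFPhsromega66 than in WT, with a median log2 ratio of -0.54 and 0 called. The lowest ratio of the list, 0.472 for rngo, lay within the range of the subunits. Ubi-p5E, a polyubiquitin gene, was at 172 FPKM in the libraries labelled Hsp90GFPhsromega66, 291 FPKM in Hsp90GFP, 384 FPKM in hsromega66 and 245 FPKM in WT. TER94, which pulls ubiquitin-marked proteins out of complexes, was at 102 FPKM in the libraries labelled Hsp90GFPhsromega66, 188 FPKM in Hsp90GFP, 210.1 FPKM in hsromega66 and 204 FPKM in WT. Polyubiquitin genes hold near-identical repeats, so reads may be split between them.

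The cnc list is named for a transcription factor known to activate proteasome genes. Of its 5 genes, 3 were higher and 2 lower in the libraries labelled Hsp90GFPhsromega66 than in WT, with 0 called and a median log2 ratio of 0.16 that turned to -0.20 when groups were scaled to their summed FPKM. cnc was at 83.0 FPKM in the libraries labelled Hsp90GFPhsromega66, 85.1 FPKM in Hsp90GFP, 74.8 FPKM in hsromega66 and 64.5 FPKM in WT, a ratio of 1.29 to WT (0.355 to 4.67). Its partner maf-S was at 34.4 FPKM in the libraries labelled Hsp90GFPhsromega66, 57.5 FPKM in Hsp90GFP, 43.9 FPKM in hsromega66 and 47.3 FPKM in WT.

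The COP9 signalosome resembles the proteasome lid in its subunits and acts on cullin ubiquitin ligases. All 9 of its genes were lower in the libraries labelled Hsp90GFPhsromega66 than in WT, with a median log2 ratio of -0.23 over those above 0. Of the 9, 1 was called lower, where 4.05% of all tested rows were, so this count says little about the list. The called gene was CSN1a, listed at 0 in the libraries labelled Hsp90GFPhsromega66 and at 1.28 FPKM in Hsp90GFP, 1.43 FPKM in hsromega66 and 1.37 FPKM in WT. Its most abundant members, alien and CSN5, were less apart. alien was at 30.2 FPKM in the libraries labelled Hsp90GFPhsromega66, 35.7 FPKM in Hsp90GFP, 40.2 FPKM in hsromega66 and 37.9 FPKM in WT. CSN5, the subunit that removes Nedd8, was at 30.4 FPKM in the libraries labelled Hsp90GFPhsromega66, 34.8 FPKM in Hsp90GFP, 33.4 FPKM in hsromega66 and 34.7 FPKM in WT.

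Of 11 cullin ligase genes, 10 were lower and 1 higher in the libraries labelled Hsp90GFPhsromega66 than in WT, with a median log2 ratio of -0.56. Of the 11, 1 was called lower, where 4.05% of all tested rows were, so this count says little about the list. Cul5, a ligase scaffold, fell to 4.83 FPKM in the libraries labelled Hsp90GFPhsromega66, against 17.0 FPKM in WT, with a ratio of 0.285 (0.0933 to 0.869) and a Cuffdiff q of 0.0312 in the authors' deposited table. It was at 11.2 FPKM in Hsp90GFP and 17.1 FPKM in hsromega66, and was called lower against hsromega66 as well. The adaptor skpA was at 247 FPKM in the libraries labelled Hsp90GFPhsromega66, 204 FPKM in Hsp90GFP, 275 FPKM in hsromega66 and 249 FPKM in WT. The RING protein gene Roc1a was at 126 FPKM in the libraries labelled Hsp90GFPhsromega66, 156 FPKM in Hsp90GFP, 170.2 FPKM in hsromega66 and 175 FPKM in WT. In Hsp90GFP over WT and in hsromega66 over WT, Cuffdiff called 0 genes of the 5 lists, where 1.09% and 1.24% of rows were called.

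**Figure D5:**
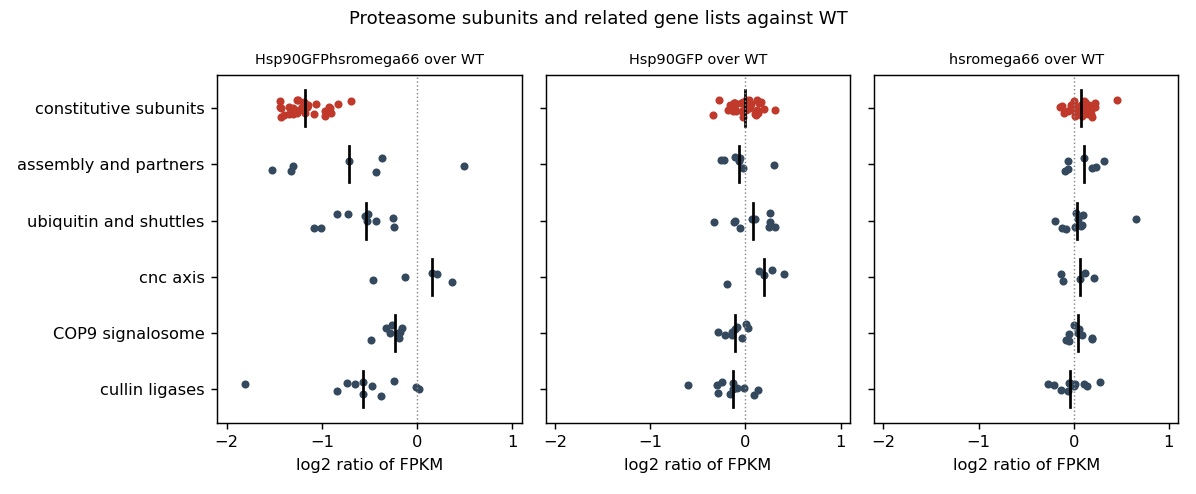
Log2 ratios of FPKM to WT for the constitutive subunits (red) and the 5 related gene lists (blue), with 1 point per gene and a black tick at the median of each list. CSN1a, listed at 0 in the libraries labelled Hsp90GFPhsromega66, has no point in the left panel. There the list medians run from -1.18 for the subunits to 0.16 for the cnc list, and in the other panels they lie between -0.13 and 0.20.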

How the data were processed

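The deposited tables hold gene-level FPKM, p-values and q-values of 6 pairwise comparisons, made by the authors with TopHat, Bowtie, Cufflinks and Cuffdiff 2.1.1 on build dm6, per the submitters' processing notes. For the first 3 tools no version is stated, nor are the annotation and the strand setting. The kit was stranded, per the labels' protocols, with 50 bp paired reads in 2 lanes. Each FPKM pools the libraries of its group, so precision per library is unknown.

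The test statistic of each row is a score from Cuffdiff, as deposited by the authors. From these, ratios of FPKM were computed without a pseudocount. The implied standard error is the log2 ratio divided by the authors' test statistic, and a two-sided z test on it with Benjamini-Hochberg adjustment over all rows was an alternative, checked on simulated data. The simulated log2 changes were larger than that of any constitutive subunit. Sums and medians over lists are descriptions. Subunits were matched to Ensembl release 115 (BDGP6.54, dm6 coordinates), which gave coordinates and transcript lengths. Computations used Python 3.11.15, pandas 2.3.3 and scipy 1.17.1.

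The members, lists and tests were chosen with earlier results of these data known. Named genes are the label checks, called members, testis-type copies of at least 1 FPKM, and the extremes by mean FPKM and by ratio in each ring, base and lid. Of the 5 related lists they are the called genes and the highest 2 by mean FPKM. REG, Rpn3, l(2)gl, bam, tud and rngo were picked after their values were seen, as was the split of rows by span.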

Additional observations from a re-analysis of the deposited data

How the results depend on the processing

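Depth is unknown and no library has its own value here, so leaving out a library was not run. No paired analysis was possible because the deposited values pool the libraries of a group. No called result reversed, and of the recomputed values 63 kept their side or moved little, while 23 moved. Of all 43 members, 2 were called in each comparison of the libraries labelled Hsp90GFPhsromega66, both lower, and 0 in the others. Of all tested rows, 4.05% were called lower against WT, 3.63% against hsromega66 and 3.14% against Hsp90GFP. The count of 2 is near these shares and says little about the members as a whole. In the other comparisons 1.09% of rows were called for Hsp90GFP over WT, 1.24% for hsromega66 over WT and 0.997% for Hsp90GFP over hsromega66. An unadjusted Cuffdiff p under 0.05 gave 20 against WT, 20 against hsromega66 and 20 against Hsp90GFP, and 1 for Hsp90GFP over WT. Of all rows, 8.86%, 8.17% and 7.60% were lower with such a p in the first 3 comparisons. For Hsp90GFP over WT 3.06% of rows had one in either direction. The z test gave 1 against WT, 0 against hsromega66 and 0 against Hsp90GFP, and with ratios centred on the median row 1, 0 and 0. A q under 0.01 gave 1 against hsromega66. The one left against WT was Rpt6R, and Prosalpha3T, listed at 0, cannot enter the z tests. Scaling each group to its summed FPKM moved every log2 ratio of the libraries labelled Hsp90GFPhsromega66 over WT by -0.36, and gave constitutive medians of -1.54 against WT, -1.44 against hsromega66 and -1.61 against Hsp90GFP, -0.0711 for hsromega66 over WT and 0.18 for Hsp90GFP over hsromega66. Centring on rows of at least 50 FPKM, an alternative chosen after seeing the data, gave -1.63 against WT, -1.62 against hsromega66 and -1.67 against Hsp90GFP. With medians in place of sums the core was 1.72 times the regulatory particle in the libraries labelled Hsp90GFPhsromega66, 1.54 in Hsp90GFP, 1.45 in hsromega66 and 1.45 in WT. The cause of these differences between settings was not tested.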
